A study of Mus musculus with 13 samples.

Results

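The results concern 10 protein-coding genes of IL-6 family and IL-33 signalling in mouse lung fibroblasts, chosen by symbol among the 43346 genes of the deposited table. They are the ligands Il6, Il11 and Lif, the receptor chains Il6ra, Osmr and Il6st, the transcription factor Stat3, the feedback inhibitor Socs3, the alarmin Il33 and its receptor Il1rl1, also known as ST2. All 10 were found in the table, and 9 of them reached the level required for the test across genes, the exception being Il1rl1.

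RNA was sequenced from lung fibroblasts in 4 groups. The first group was taken 14 days after bleomycin (n = 3), a drug that injures the lung and causes scarring, and the second 30 days after bleomycin (n = 5). The third group was taken 14 days after pneumonectomy (n = 3), the removal of one lung, after which the remaining lung grows, and the control group had a sham procedure (n = 2). The titles of the sham libraries give no day and do not say which procedure was mimicked. Whether sham matched either injury in time or procedure cannot be told from them. The bleomycin and sham libraries are labelled as coming from Col1a1-GFP mice aged 8 weeks, a line that carries a green fluorescent protein under a promoter of type I collagen. The pneumonectomy libraries are labelled as primary sorted fibroblasts of the lung with no strain or age in weeks. The table's header calls every group young, and the series describes the cells of all groups as Col1a1-GFP fibroblasts. Any difference in preparation cannot be told apart from pneumonectomy. The labels give no sorting gate and no sex, and they do not say whether the libraries of a group came from separate mice, so the p-values measure only the spread between these libraries.

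IL-6 family cytokines act through receptor complexes that share the chain gp130, encoded by Il6st. A ligand-specific chain, such as the IL-6 receptor encoded by Il6ra or the oncostatin M receptor encoded by Osmr, decides which ligand a cell can bind, and LIF and IL-11 use chains of their own. The complex activates JAK kinases and the transcription factor STAT3, which induces SOCS3, an inhibitor that acts back on gp130. IL-33 is kept in the nucleus of stromal and epithelial cells, is released when cells are damaged, and binds ST2 on immune cells such as mast cells and group 2 innate lymphoid cells. IL-6 and IL-11 are both known for their links to lung fibrosis, and fibroblasts are a known source of both.

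As estimated from the deposited values, the libraries held between 79.9 and 99.9 M reads at day 14 after bleomycin, between 132.7 and 200.4 M at day 30, between 69.0 and 75.5 M after pneumonectomy and between 67.6 and 72.0 M in sham. All 8 general fibroblast markers exceeded 1 RPKM on average in each group, but their levels differed between groups. At day 14 after bleomycin 1 was called higher and 4 lower than in sham, where 33.4% of all tested genes were higher and 29.9% lower. Dcn, for example, had 117.2 to 169.2 RPKM at that time and 1382 and 1856 RPKM in sham. Against pneumonectomy none was higher and 6 were lower at day 14, where 36.2% of all tested genes were higher and 34.6% lower. Markers of other cells differed between groups: the summed level of 8 endothelial markers was 263 to 508 RPKM at day 14 after bleomycin, 12.9 to 16.5 at day 30, 17.8 to 42.4 after pneumonectomy and 21.2 to 24.5 in sham. The sum of 7 macrophage markers was 130.1 to 443 RPKM at day 14 after bleomycin, 206 to 726 at day 30, 24.1 to 38.5 after pneumonectomy and 25.3 to 32.99 in sham. By Xist and Ddx3y, which mark female and male cells, all day 30 libraries were female, all day 14 libraries after bleomycin or pneumonectomy were male, sham replicate 1 held RNA of both sexes and sham replicate 2 was male. Day 30 replicate 3 stood apart with 1219 RPKM summed over 8 alveolar epithelial markers, against 5.98 to 14.5 in the other day 30 libraries. Pneumonectomy library A stood apart with 429.5 RPKM summed over 4 airway epithelial markers, against 63.5 in library B and 10.4 in library C. The sum of 5 mesothelial markers was 2.26 to 4.02 RPKM at day 14 after bleomycin, 3.99 to 19.5 at day 30, 11.3 to 37.6 after pneumonectomy and 1.92 to 2.96 in sham, and all 5 were called higher after pneumonectomy than in sham, where 22.6% of all tested genes were higher. The sum of 6 alveolar fibroblast markers was 108 to 132 RPKM at day 14 after bleomycin, 341 to 519 at day 30, 761 to 897 after pneumonectomy and 659 to 768 in sham. Of these sums, Inmt alone made up 33.96 to 51.45, 228.3 to 402.3, 474.4 to 578.2 and 521.5 to 655.6 RPKM. Against sham, 1 of the 6 was called higher and 3 lower at day 14, 2 and 3 at day 30, and 4 and none after pneumonectomy. Of all tested genes 33.4%, 14.8% and 22.6% were higher in these comparisons and 29.9%, 14.1% and 19.3% lower. The part of these cells in the results was not tested.

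**Figure D1:**
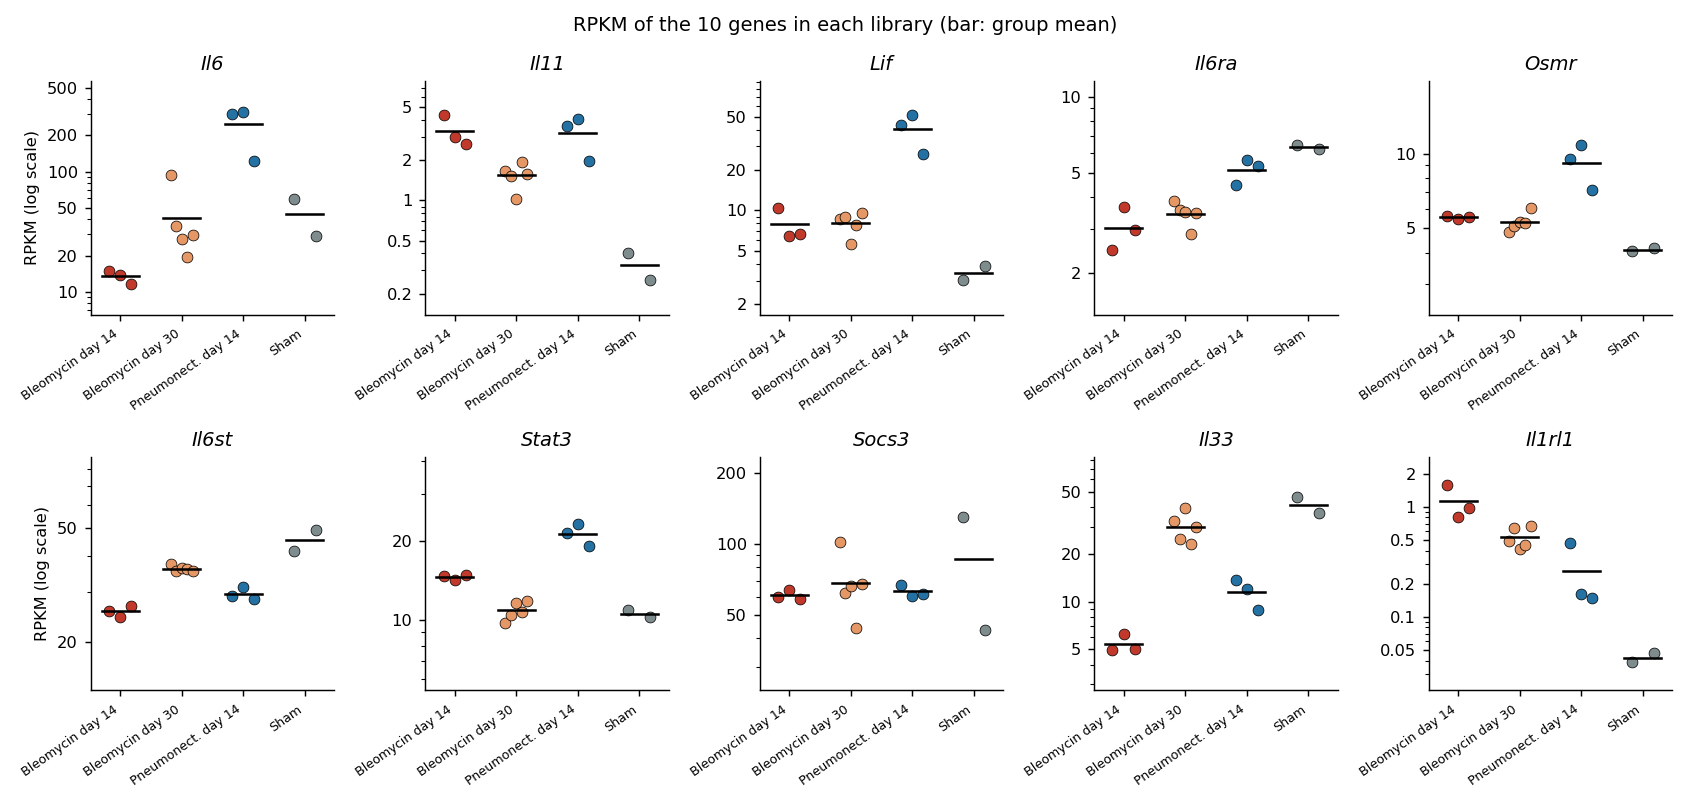
Deposited RPKM (log axis) of the 10 genes in each of the 13 libraries, by group, with bars at the group means. Il6 and Lif were highest after pneumonectomy, Il33 was lowest at day 14 after bleomycin, and Il1rl1 was below 0.05 RPKM in both sham libraries.

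Il6, the gene of the founding cytokine of the family, moved in opposite directions in the 2 groups taken at day 14. It lies on chromosome 5 at 30013114 to 30019981 on the plus strand, and this and the other gene positions are those of GENCODE M21 on mm10. Il6 had 14.9, 13.8 and 11.6 RPKM in the day 14 bleomycin libraries, 94.3, 35.4, 27.6, 19.6 and 29.4 RPKM at day 30, 302.5, 314.9 and 122.8 RPKM after pneumonectomy, and 59.4 and 29.2 RPKM in sham. The pneumonectomy libraries all lay above and the day 14 bleomycin libraries all below both sham libraries, whereas the day 30 libraries spanned the sham values. Here and below, log2 differences were taken on log2(scaled RPKM + 0.1), which understates the change of low genes. The error given is the standard error from the model, and adjusted p-values come from limma with Benjamini-Hochberg adjustment over 12938 genes. Il6 was lower at day 14 after bleomycin than in sham, with a log2 difference of -1.88 ± 0.60 (adjusted p = 0.0164), and higher after pneumonectomy, with 2.67 ± 0.60 (adjusted p = 0.00446). Both calls rested on the small sham group: the first was lost without sham replicate 1 (-1.37, adjusted p = 0.143) and the second without sham replicate 2 (2.15, adjusted p = 0.0557). The direct difference between the 2 injuries at day 14 was larger, -4.54 ± 0.53 (adjusted p = 1.42e-05), or 23.3-fold less Il6 after bleomycin than after pneumonectomy.

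Il11, which encodes a cytokine that acts on fibroblasts through its own receptor chain and gp130, was higher than sham in all 3 injured groups. The gene lies on chromosome 7 at 4772373 to 4782859 on the minus strand. Its values were 4.37, 2.98 and 2.64 RPKM at day 14 after bleomycin, 1.66, 1.51, 1.03, 1.96 and 1.57 RPKM at day 30, 3.59, 4.08 and 1.99 RPKM after pneumonectomy, and 0.401 and 0.251 RPKM in sham. Every injured library exceeded both sham libraries, which had only 38 to 56 estimated reads of Il11 each, and such counts carry counting error besides the spread between libraries. The log2 difference from sham was 2.77 ± 0.34 at day 14 after bleomycin (adjusted p = 2.47e-05), 1.84 ± 0.31 at day 30 (adjusted p = 0.00169) and 3.15 ± 0.34 after pneumonectomy (adjusted p = 4.41e-05). Between the 2 groups at day 14 the libraries overlapped, and the difference of -0.38 ± 0.30 between bleomycin and pneumonectomy was not called (adjusted p = 0.279). Il11 was lower at day 30 than at day 14 after bleomycin by a log2 difference of -0.93 ± 0.27 (adjusted p = 0.0109), which was no longer called without day 14 replicate 1 (-0.70, adjusted p = 0.0628).

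Lif, the gene of leukaemia inhibitory factor, was also highest after pneumonectomy and lies on chromosome 11 at 4257557 to 4272514 on the plus strand. It had 10.4, 6.48 and 6.71 RPKM at day 14 after bleomycin, 8.61, 8.99, 5.58, 7.84 and 9.55 RPKM at day 30, 43.4, 51.1 and 26.3 RPKM after pneumonectomy, and 3.01 and 3.86 RPKM in sham. The pneumonectomy libraries lay above all others, the bleomycin libraries of the 2 times overlapped, and every injured library exceeded sham. The log2 difference of pneumonectomy from sham was 3.69 ± 0.31, a 12.9-fold rise (adjusted p = 9.78e-06). The rises after bleomycin were smaller, 0.91 ± 0.31 at day 14 (adjusted p = 0.0242) and 1.09 ± 0.29 at day 30 (adjusted p = 0.0164). The day 14 call was lost without day 14 replicate 1 (0.67, adjusted p = 0.0849) or without sham replicate 1 (0.74, adjusted p = 0.145), and the day 30 call without either sham replicate (adjusted p = 0.121 and 0.053).

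The sequences upstream of the 3 ligand genes are shown because these genes had the largest rises of the tested members after pneumonectomy against sham. They are RefSeq promoter sequences on GRCm38.p6, written in the direction of the gene, and capitals mark every match to 5 motifs searched on both strands, NF-kB (GGG and CC with 5 other bases between them), AP-1 (TGANTCA), C/EBP (TTGCNNAA), STAT (TTCNNNGAA) and CRE (TGACGTCA), which do not share matched bases here except where stated. The Il6 stretch is chr5:30012864-30013113 on the plus strand and ends at the base before the annotated start. The Lif stretch is chr11:4257318-4257537 on the plus strand, and the Il11 stretch is chr7:4778192-4778291 on the minus strand, before the second of its 2 listed starts. That second Il11 start lies inside the gene span given above.
Il6: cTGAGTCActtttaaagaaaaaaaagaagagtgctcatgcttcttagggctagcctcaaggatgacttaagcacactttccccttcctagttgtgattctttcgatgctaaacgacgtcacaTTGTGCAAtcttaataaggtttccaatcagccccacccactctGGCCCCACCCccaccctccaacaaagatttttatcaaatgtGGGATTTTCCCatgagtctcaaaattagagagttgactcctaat
Lif: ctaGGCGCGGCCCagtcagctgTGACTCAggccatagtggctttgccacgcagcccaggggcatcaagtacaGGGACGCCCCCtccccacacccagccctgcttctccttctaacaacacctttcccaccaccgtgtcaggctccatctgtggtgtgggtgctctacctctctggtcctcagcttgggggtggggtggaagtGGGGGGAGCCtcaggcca
Il11: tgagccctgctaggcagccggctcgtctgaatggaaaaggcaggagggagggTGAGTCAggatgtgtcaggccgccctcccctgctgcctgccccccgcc
In the Il6 stretch the capitals are an AP-1 match 249 bases before the start, a C/EBP match at 128 and NF-kB matches at 85, 44 and 43, the last 2 overlapping each other. In the Lif stretch they are NF-kB matches at 247, 178, 177 and 48, those at 178 and 177 overlapping each other, and an AP-1 match at 228, and in the Il11 stretch an AP-1 match at 98. The first Il11 start, not shown, has overlapping NF-kB matches at 75 and 74. Among 32536 promoters of 250 bases, 46.0% hold an NF-kB match, 6.73% an AP-1 match, 9.57% a C/EBP match, 7.04% a STAT match and 1.56% a CRE match. An NF-kB match is thus common, and a match of letters is a description of the sequence, not a site of binding. Over all 10 genes and their 13 promoters, 6 genes had an NF-kB match, 3 an AP-1 match, 3 a C/EBP match, 1 a STAT match and none a CRE match, which says only that those letters are not in these windows.

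The receptor chains did not move together. Il6ra, the chain that binds IL-6, lies on chromosome 3 at 89864059 to 89913196 on the minus strand. It had 2.46, 3.67 and 2.96 RPKM at day 14 after bleomycin, 3.86, 3.55, 3.50, 2.85 and 3.46 RPKM at day 30, 4.45, 5.60 and 5.30 RPKM after pneumonectomy, and 6.42 and 6.197 RPKM in sham. All bleomycin libraries lay below the pneumonectomy and sham libraries. Il6ra fell by 1.29 ± 0.15 on the log2 scale at day 14 after bleomycin (adjusted p = 1.72e-05) and by 0.98 ± 0.14 at day 30 (adjusted p = 6.45e-04), both against sham. After pneumonectomy the difference from sham was -0.08 ± 0.15 and was not called (adjusted p = 0.679). Some Il6ra exons overlap an annotated antisense gene, Gm42809, over 242 bases, and no source used here says whether the counting took account of strand.

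Osmr, the chain for oncostatin M, was called in the 3 comparisons that involve pneumonectomy and in no other in the limma fit. The gene lies on chromosome 15 at 6813577 to 6874969 on the minus strand. It had 5.60, 5.47 and 5.58 RPKM at day 14 after bleomycin, 4.85, 5.11, 5.32, 5.25 and 6.06 RPKM at day 30, 9.50, 10.9 and 7.16 RPKM after pneumonectomy, and 4.06 and 4.17 RPKM in sham. The pneumonectomy libraries stood above all others. Osmr rose by 1.34 ± 0.15 after pneumonectomy against sham (adjusted p = 4.93e-05) and was lower at day 14 after bleomycin than after pneumonectomy with a log2 difference of -1.15 ± 0.13 (adjusted p = 1.03e-05). Against sham it differed by 0.18 ± 0.15 at day 14 after bleomycin (adjusted p = 0.292) and by 0.24 ± 0.13 at day 30 (adjusted p = 0.199), neither of which was called. Without scaling between libraries the day 14 difference was 0.42 and called (adjusted p = 0.0176), and without pneumonectomy library C, which shares the fit, the day 30 difference was called (0.24, adjusted p = 0.0383).

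Il6st, the shared chain gp130, was lower than sham after each injury. It is on chromosome 13 at 112464070 to 112510086 on the plus strand. Il6st had 25.6, 24.5 and 26.7 RPKM at day 14 after bleomycin, 37.4, 35.5, 36.2, 36.1 and 35.4 RPKM at day 30, 28.9, 31.1 and 28.4 RPKM after pneumonectomy, and 41.7 and 49.2 RPKM in sham. In deposited RPKM no 2 groups overlapped, in the order sham, day 30, pneumonectomy and day 14 after bleomycin from high to low. The log2 difference from sham was -1.06 ± 0.09 at day 14 after bleomycin (adjusted p = 1.07e-06), -0.45 ± 0.08 at day 30 (adjusted p = 0.00219) and -0.40 ± 0.09 after pneumonectomy (adjusted p = 0.00363). The pneumonectomy call was lost when sham replicate 2 was left out (-0.28, adjusted p = 0.055) and when the compared groups were fitted alone (-0.40, adjusted p = 0.0614). Whether day 30 and pneumonectomy differed depended on the scaling, with -0.05 ± 0.07 (adjusted p = 0.57) after scaling and 0.29 (adjusted p = 0.00164) on the deposited values.

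Stat3, which encodes the transcription factor downstream of gp130, was highest after pneumonectomy. It is on chromosome 11 at 100885098 to 100939540 on the minus strand. Stat3 had 14.6, 14.2 and 14.8 RPKM at day 14 after bleomycin, 9.75, 10.4, 11.6, 10.8 and 11.9 RPKM at day 30, 21.3, 23.1 and 19.1 RPKM after pneumonectomy, and 10.9 and 10.2 RPKM in sham. The pneumonectomy libraries lay above all others, the day 14 bleomycin libraries came next without overlap, and the day 30 libraries spanned sham. The log2 difference of pneumonectomy from sham was 1.22 ± 0.10, a 2.32-fold rise (adjusted p = 8.07e-06). At day 14 after bleomycin the difference from sham was 0.22 ± 0.10 (adjusted p = 0.0745), which was not called after scaling but was on the deposited values (0.46, adjusted p = 0.00104), with the compared groups fitted alone (adjusted p = 0.0445) and without pneumonectomy library C (adjusted p = 0.0382). Stat3 was lower at day 14 after bleomycin than after pneumonectomy with a log2 difference of -0.996 ± 0.09 (adjusted p = 1.66e-06), and lower at day 30 than at day 14 after bleomycin with -0.30 ± 0.08 (adjusted p = 0.00723). Its exons share 72 bases with Stat5a on the opposite strand, which reached at most 1.93 RPKM in any library.

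Socs3, the feedback inhibitor that STAT3 induces, was called in none of the 6 comparisons between groups in the limma fit. It is on chromosome 11 at 117966079 to 117970047 on the minus strand. Socs3 had 59.6, 64.0 and 58.8 RPKM at day 14 after bleomycin, 102.7, 62.4, 66.4, 44.1 and 67.9 RPKM at day 30, 67.4, 60.1 and 61.7 RPKM after pneumonectomy, and 130.8 and 43.2 RPKM in sham. In deposited RPKM the 2 sham libraries differed 3.03-fold and lay on either side of all other libraries. On the scaled log2 scale day 30 replicate 4 lay below sham replicate 2, at 5.40 against 5.49. After pneumonectomy, where Stat3 was higher, Socs3 differed from sham by -0.03 ± 0.39 (adjusted p = 0.954). At day 14 and day 30 after bleomycin the differences from sham were -0.55 ± 0.39 (adjusted p = 0.239) and -0.30 ± 0.36 (adjusted p = 0.554). All 3 differences turned positive without sham replicate 1, to 0.25, 0.50 and 0.77 at day 14, at day 30 and after pneumonectomy, with adjusted p-values of 0.545, 0.287 and 0.092. Without sham replicate 2 Socs3 was called lower at day 14 (-1.35, adjusted p = 0.00533) and day 30 (-1.10, adjusted p = 0.04), and with the compared groups alone it was called lower at day 14 after bleomycin than after pneumonectomy (-0.52, adjusted p = 0.00216).

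Of the 10 genes, Socs3 alone had a STAT match (TTCNNNGAA) in the 250 bases upstream of a RefSeq start, the pattern to which STAT dimers are known to bind. The stretch shown is chr11:117969452-117969546 on the minus strand of GRCm38.p6 from RefSeq, in the direction of the gene, with the STAT match 154 bases and an NF-kB match 97 bases before the start in capitals. The RefSeq start differs from that of GENCODE M21, so the stretch lies inside the gene span given above, where it holds no M21 exon bases.
Socs3: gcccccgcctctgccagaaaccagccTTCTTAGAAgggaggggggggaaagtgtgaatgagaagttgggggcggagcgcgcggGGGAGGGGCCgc

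The 2 libraries with the highest Socs3, sham replicate 1 and day 30 replicate 1, were also high in immediate-early genes, which respond within minutes to stimulation of a cell, including the handling of tissue. The 8 genes Fos, Fosb, Jun, Egr1, Atf3, Ier2, Nr4a1 and Dusp1, chosen after the values of Socs3 were seen, summed to 734 to 772 RPKM at day 14 after bleomycin, 2169, 1486, 1429, 1249 and 1471 RPKM at day 30, 2245, 1910 and 1971 RPKM after pneumonectomy, and 2552 and 1189 RPKM in sham. Each of the 8 was higher in sham replicate 1 than in sham replicate 2, and each was highest among the day 30 libraries in replicate 1, the library with the highest Il6 and Socs3 of that group. At day 14 after bleomycin all 8 were called lower than in sham and lower than after pneumonectomy, where 29.9% and 34.6% of all tested genes were lower. The pneumonectomy libraries had high sums without high Socs3. Their part in the differences of Il6 and Socs3 was not tested.

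**Figure D2:**
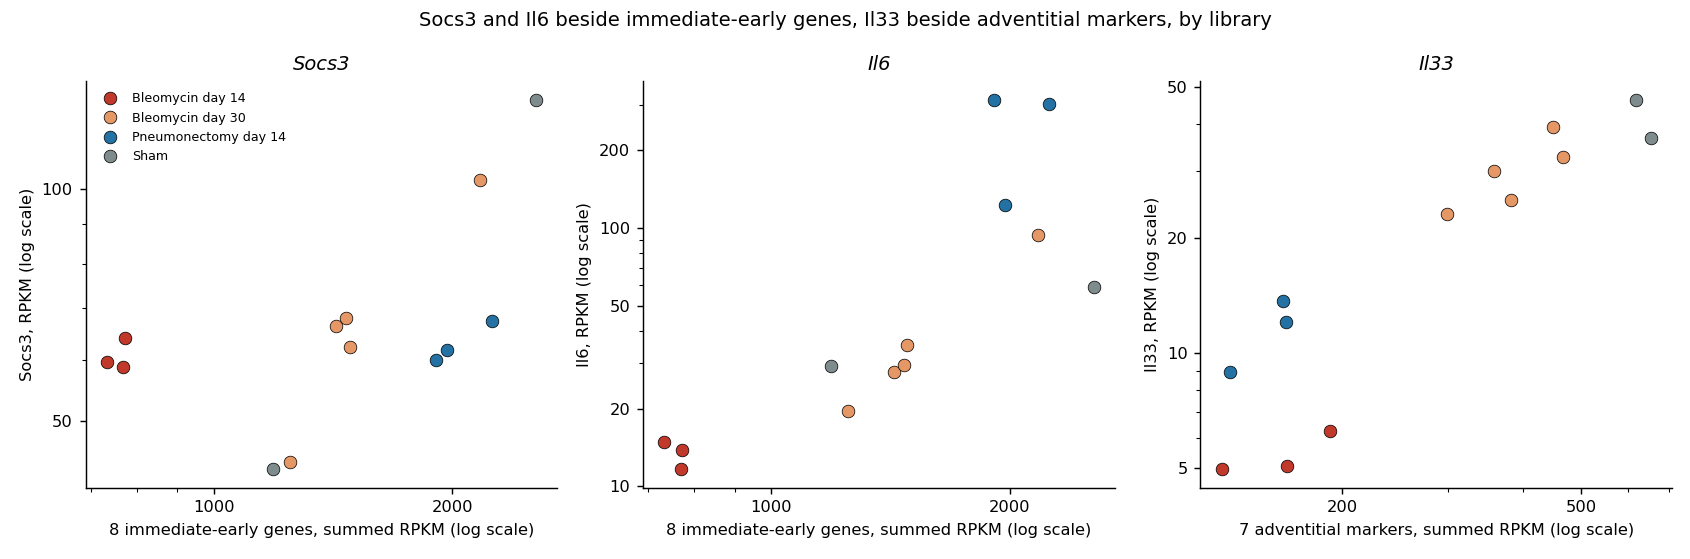
Each point is 1 of 13 libraries, on log axes in RPKM: Socs3 and Il6 against the sum of 8 immediate-early genes, and Il33 against the sum of 7 adventitial fibroblast markers. Sham replicate 1 had both the highest Socs3 (130.8 RPKM) and the highest immediate-early sum (2552 RPKM), and Il33 was high in the libraries with high adventitial sums.

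Il33 had the largest fall against sham of the tested members, at day 14 after bleomycin. It is on chromosome 19 at 29925114 to 29960718 on the plus strand. Il33 had 4.96, 6.25 and 5.05 RPKM at day 14 after bleomycin, 32.8, 25.2, 39.3, 23.1 and 30.01 RPKM at day 30, 13.7, 12.1 and 8.92 RPKM after pneumonectomy, and 46.3 and 36.7 RPKM in sham. The day 14 bleomycin libraries lay below all others, and the pneumonectomy libraries came next. In deposited RPKM the day 30 libraries overlapped sham only through replicate 3. On the scaled log2 scale that library lay just below sham replicate 2, at 5.247 against 5.249. Replicate 3 is also the day 30 library with high alveolar epithelial markers, and their part in its Il33 was not tested. Il33 was lower than in sham by a log2 difference of -3.15 ± 0.24 at day 14 after bleomycin, 8.89-fold (adjusted p = 6.53e-07), and by -1.63 ± 0.24 after pneumonectomy (adjusted p = 3.12e-04). At day 30 the difference from sham was -0.60 ± 0.22 (adjusted p = 0.0582), which was called without day 30 replicate 3 (-0.70, adjusted p = 0.026) or pneumonectomy library C (-0.60, adjusted p = 0.0377). Il33 was 5.88-fold higher at day 30 than at day 14 after bleomycin (2.56 ± 0.19, adjusted p = 5.8e-07), and it was lower at day 14 after bleomycin than after pneumonectomy (-1.53 ± 0.21, adjusted p = 5.05e-05).

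Markers of adventitial fibroblasts, which surround airways and vessels, moved with Il33. The 7 markers, among them Pi16 and Dpp4, summed to 126 to 191 RPKM at day 14 after bleomycin, 299 to 467 at day 30, 130.2 to 161 after pneumonectomy and 617 to 654 in sham. Against sham, 6 of the 7 were lower at day 14 after bleomycin, 6 at day 30 and all 7 after pneumonectomy, with none higher, where 29.9%, 14.1% and 19.3% of all tested genes were lower in these comparisons. The sums of the day 14 bleomycin and the pneumonectomy libraries overlapped, although their Il33 values did not. Ly6c1, which endothelial cells also express, made up 69.1 to 118.9 RPKM of the day 14 bleomycin sums. In RNA from a whole sorted population, fewer cells of a type and less RNA per cell cannot be told apart. The part of these markers in the Il33 difference was not tested.

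Il1rl1, which encodes ST2, was low throughout and followed another order than its ligand. It is on chromosome 1 at 40429570 to 40465415 on the plus strand. Il1rl1 had 1.58, 0.800 and 0.979 RPKM at day 14 after bleomycin, 0.4927, 0.636, 0.413, 0.452 and 0.669 RPKM at day 30, 0.469, 0.160 and 0.150 RPKM after pneumonectomy, and 0.0387 and 0.0464 RPKM in sham. All injured libraries exceeded sham, and the day 14 bleomycin libraries exceeded all others. These values rest on an estimated 551 to 871 reads at day 14 after bleomycin, 448 to 878 at day 30, 71 to 242 after pneumonectomy and 18 to 23 in sham. Exact two-sided permutation tests gave p = 0.1 for day 14 after bleomycin against sham (log2 difference 2.86), p = 0.0476 for day 30 against sham (2.06) and p = 0.1 for pneumonectomy against sham (1.402), each the smallest p that the group sizes allow. Day 30 was lower than day 14 after bleomycin with a log2 difference of -0.80 (exact permutation p = 0.0179, the smallest possible), and adjusted over the 6 comparisons every p was 0.1.

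Several cell types that can express ST2 were checked by their markers. The endothelial sum was highest in the day 14 bleomycin group, as was Il1rl1. Within that group replicate 1 had 1.58 RPKM of Il1rl1 and an endothelial sum of 263 RPKM, replicate 2 had 0.800 and 508 RPKM, and replicate 3 had 0.979 and 468 RPKM. The sum of 8 mast cell markers was 6.998 to 13.2 RPKM at day 14 after bleomycin, 3.61 to 7.44 at day 30, 3.17 to 4.14 after pneumonectomy and 2.33 to 2.72 in sham. Kit, which endothelial cells also express, made up 4.80 to 10.4 RPKM of the day 14 sum, Hdc 1.31 to 1.48 RPKM and the protease gene Cpa3 0.636 to 1.30 RPKM, while each of the other 5 was at most 0.221 RPKM there. Of the 3 mast cell markers tested, 2 were higher than in sham at day 14, where 33.4% of all tested genes were higher. None of the 3 reached 1 RPKM in either sham library, so they passed the filter only through injured libraries. That favours a call of higher than sham, and the count cannot be weighed against the share of all genes. The 12 markers of group 2 innate lymphoid and T cells summed to 11.3 to 14.6 RPKM at day 14 after bleomycin, 22.8 to 35.3 at day 30, 23.1 to 23.9 after pneumonectomy and 17.4 to 21.0 in sham, with Rora and Thy1, which fibroblasts also express, as the main part. Of the 5 tested, 2 were higher and 2 lower than in sham at day 14, where 33.4% of all tested genes were higher and 29.9% lower. Gata3, a defining gene of group 2 innate lymphoid cells, was at 0.180 to 0.398 RPKM at day 14 after bleomycin and 0.0163 to 0.0839 RPKM in the other libraries. The part of these cells in the Il1rl1 difference was not tested.

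**Figure D3:**
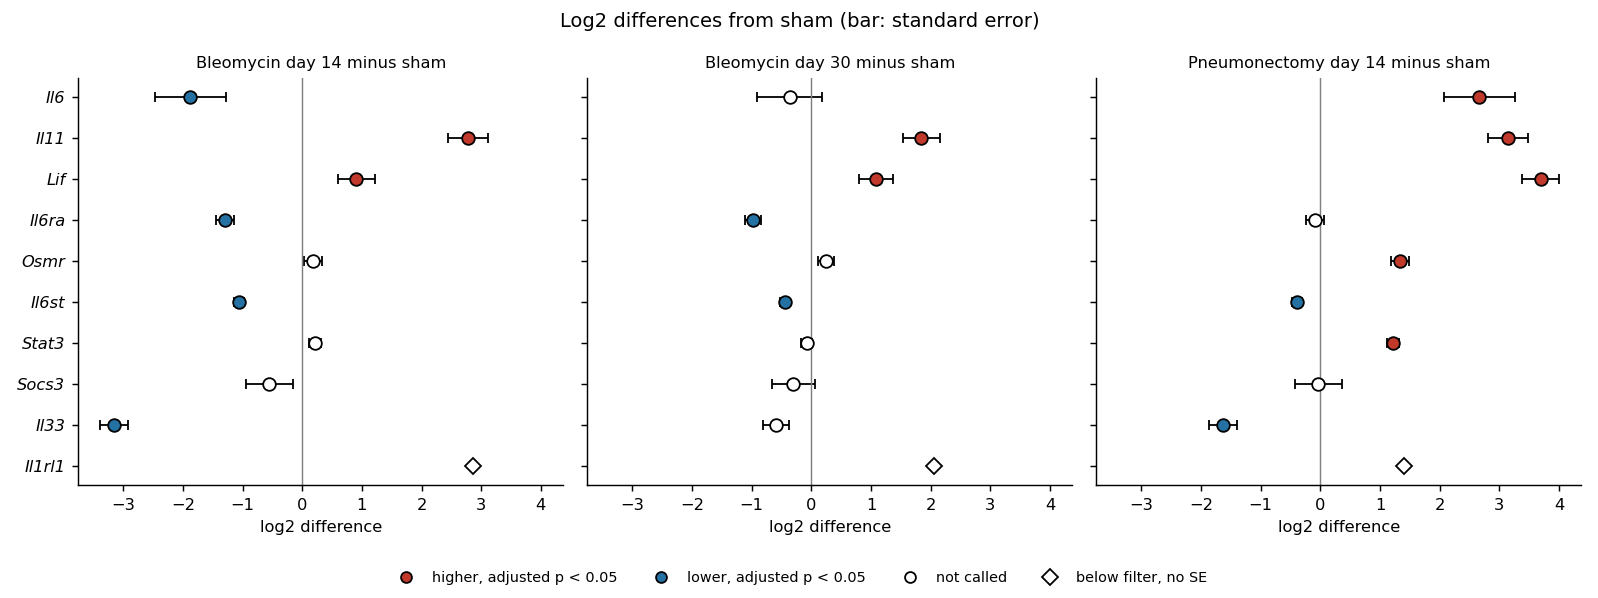
Log2 differences from sham (x axis) of the 10 genes (y axis) at day 14 and day 30 after bleomycin and after pneumonectomy, with standard errors of the limma fit. Filled points were called at an adjusted p under 0.05, and open diamonds show Il1rl1, which was below the filter and has no standard error.

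Counted over the 9 tested members, the pneumonectomy comparison with sham had the most higher calls. There 5 were higher (Il6, Il11, Lif, Osmr and Stat3), 2 lower (Il6st and Il33) and 2 not called, with 42.0% of all tested genes called, 22.6% higher and 19.3% lower, and a median log2 difference of 1.22 for the members against 0.01 for all genes. At day 14 after bleomycin 2 were higher than in sham (Il11 and Lif), 4 lower (Il6, Il6ra, Il6st and Il33) and 3 not called, with 63.3% of all genes called, 33.4% higher and 29.9% lower, and medians of -0.55 for the members and 0.02 for all genes. The 6 of 9 members called there are close to that background. At day 30 after bleomycin 2 were higher (Il11 and Lif), 2 lower (Il6ra and Il6st) and 5 not called, with 28.8% of all genes called, 14.8% higher and 14.1% lower, and medians of -0.30 and -0.0023. These 3 comparisons share the 2 sham libraries.

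Set directly against pneumonectomy, most of the tested members were lower after bleomycin. At day 14, 7 of 9 were lower, none was higher and Il11 and Socs3 were not called, with 70.8% of all genes called, 36.2% higher and 34.6% lower, and medians of -1.15 for the members and 0.02 for all genes. Day 30 had 6 lower than pneumonectomy, Il33 higher and 2 not called, with 57.6% of all genes called, 28.5% higher and 29.0% lower, and medians of -1.10 and 0.01. Lif was 6.10-fold lower at day 30 than after pneumonectomy (-2.61 ± 0.25, adjusted p = 8.71e-06) and Il6 8.18-fold lower (-3.03 ± 0.48, adjusted p = 2.55e-04). Between the bleomycin times, 4 were higher at day 30 than at day 14 (Il6, Il6ra, Il6st and Il33), 2 lower (Il11 and Stat3) and 3 not called, with 59.6% of all genes called, 28.9% higher and 30.7% lower.

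The rises of Il6st and Il33 between day 14 and day 30 after bleomycin were toward the sham level, as was the fall of Il11. Il6st was higher at day 30 by 0.62 ± 0.07 (adjusted p = 1.36e-05). Il6 was higher at day 30 by 1.51 ± 0.48 (adjusted p = 0.0171), a call lost without day 14 replicate 3 (1.39, adjusted p = 0.0619). The rise of Il6ra, 0.31 ± 0.12 (adjusted p = 0.0421), came from overlapping libraries and was lost in 15 of 22 other settings. Lif and Osmr differed between the times by 0.18 ± 0.25 (adjusted p = 0.563) and 0.06 ± 0.12 (adjusted p = 0.693). The day 30 libraries are all female, so sex cannot be told apart from the group in any comparison of day 30 with day 14 after bleomycin or with pneumonectomy, and in large part not with sham, where 1 library is male and 1 mixed.

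**Figure D4:**
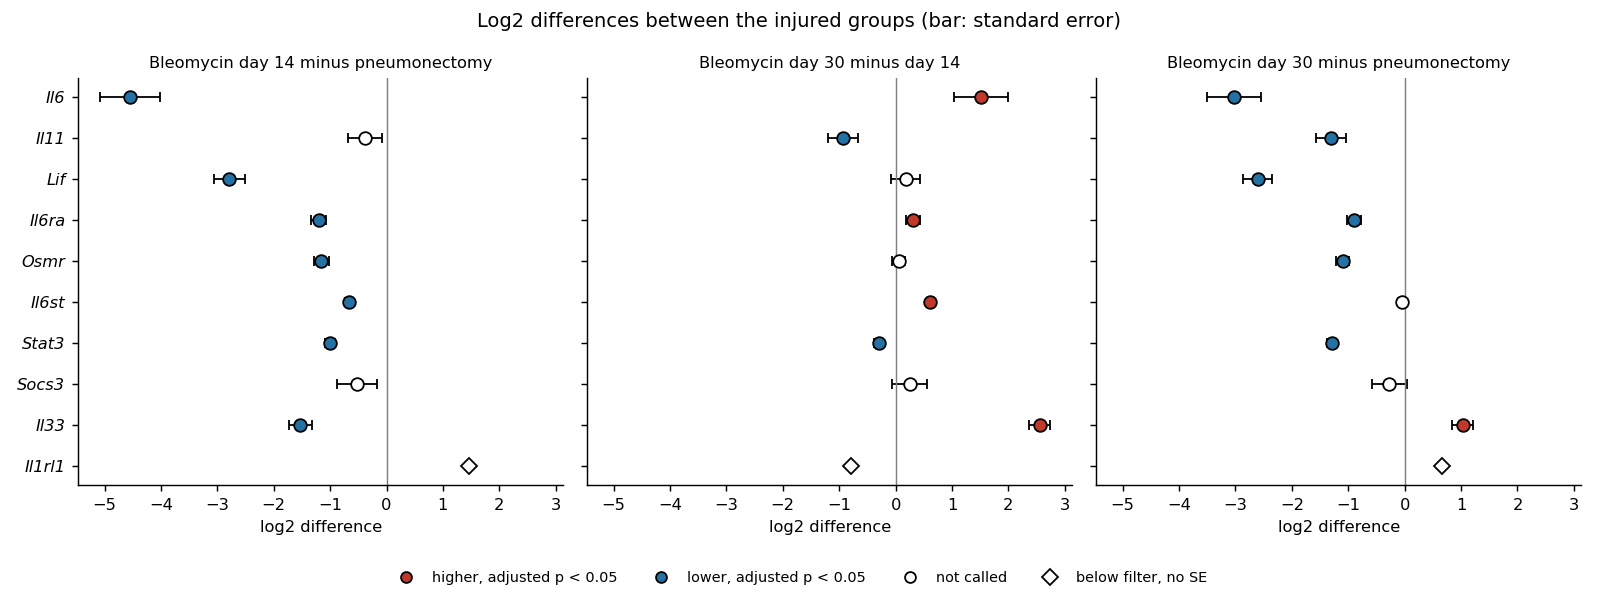
Log2 differences (x axis) of the 10 genes (y axis) for bleomycin day 14 minus pneumonectomy, bleomycin day 30 minus day 14, and bleomycin day 30 minus pneumonectomy, with standard errors of the limma fit. Il6 had the largest difference, -4.54, between bleomycin day 14 and pneumonectomy.

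Within the pneumonectomy group, 9 of the 10 genes were lowest in library C on the scaled log2 scale, the exception being Il6ra. The share of all genes that were lowest in library C was not counted, so this may not be particular to these genes. For Socs3 the margin was small, 6.19 in library C against 6.21 in library B, and in deposited RPKM library B was lower (60.05 against 61.75). Il6 was 122.8 RPKM there against 302.5 and 314.9 in libraries A and B, and Lif 26.3 against 43.4 and 51.1. The group's library C still lay above both sham libraries for Il6, Il11, Lif, Osmr and Stat3. Without library C, the Il11 difference between bleomycin day 14 and pneumonectomy was called (-0.70, adjusted p = 0.0401).

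Genes known as STAT3 targets rose in larger number after pneumonectomy than fell. Of 20 such genes 14 were higher than in sham, none lower and 6 not called, where 22.6% of all tested genes were higher and 19.3% lower, with a median log2 difference of 1.23 against 0.01 for all genes, and 12 were higher and none lower on the deposited values and with upper-quartile scaling. Leaving out libraries gave 10 higher without sham replicate 2, 12 without sham replicate 1 and 13 without sham replicate 1 and day 30 replicate 3, with none lower. Pim1, a survival kinase gene, averaged 61.3 RPKM after pneumonectomy and 10.4 RPKM in sham (2.84 ± 0.26, adjusted p = 1.48e-05). Saa3, an acute-phase gene, averaged 8.50 and 0.773 RPKM in these groups (3.46 ± 0.33, adjusted p = 2.05e-05), and Nfkb1, from the list of IL-1 and IL-33 receptor signalling and a subunit of NF-kB, averaged 50.8 and 10.1 RPKM (2.50 ± 0.21, adjusted p = 9.34e-06). The genes called lower included Cntfr, the receptor chain for ciliary neurotrophic factor (-1.25 ± 0.33), the decoy receptor Il1r2 (-1.99 ± 0.47) and the IL-36 receptor Il1rl2 (-1.55 ± 0.26).

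At day 14 after bleomycin the same list split, with 10 of 20 higher than in sham, 4 lower (Bcl6, Junb, Myc and Icam1) and 6 not called, and a median of 0.53 against 0.02 for all genes. The 14 of 20 called are near the 63.3% of all genes called in this comparison, 33.4% higher and 29.9% lower. The acute-phase genes had the largest rises: Lrg1 averaged 62.2 RPKM against 0.304 RPKM in sham (7.01 ± 0.66, adjusted p = 3.47e-06), Saa3 51.3 against 0.773 RPKM (5.62 ± 0.33, adjusted p = 1.62e-07) and Hp, the haptoglobin gene, 57.8 against 0.925 RPKM (5.52 ± 0.65, adjusted p = 1.95e-05). In the same comparison 7 of 8 endothelial and 6 of 7 macrophage markers and all 5 granulocyte markers were called higher, and their part in these values was not tested. Il11ra1, the receptor chain for IL-11, was lower, 2.97 RPKM on average against 16.5 RPKM in sham (-2.70 ± 0.20, adjusted p = 6.35e-07). A near-identical copy, Il11ra2, was listed at 0 in 12 of 13 libraries, and how reads shared by the copies were counted is not given in the sources used here. Cntfr (-2.63 ± 0.33) and Il1rl2 (-2.02 ± 0.26) were lower as well.

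Of the 8 further ligands listed, 3 passed the filter, and all 3 were higher than sham at both bleomycin times. Of all tested genes 33.4% were higher than in sham at day 14 and 14.8% at day 30. Osm, the oncostatin M gene, known from macrophages and neutrophils, averaged 2.19 RPKM at day 14 and 1.96 RPKM at day 30 after bleomycin, 0.168 RPKM after pneumonectomy and 0.196 RPKM in sham. Osm thus passed the filter only through the bleomycin libraries, which favours a call of higher there, so its calls add little to the count of 3. It was 6.51-fold higher at day 30 after bleomycin than after pneumonectomy (2.70 ± 0.31, adjusted p = 3.05e-05). Osm was thus highest in the bleomycin groups, where macrophage markers were high, while its receptor gene Osmr was highest after pneumonectomy. The sum of 5 granulocyte markers was 25.6 to 36.9 RPKM at day 14 and 22.4 to 65.1 RPKM at day 30 after bleomycin, 0.658 to 6.03 RPKM after pneumonectomy and 0.918 to 14.2 RPKM in sham, and all 5 were called higher at both bleomycin times than after pneumonectomy and than in sham. Against pneumonectomy, 36.2% of all tested genes were higher at day 14 and 28.5% at day 30. The part of macrophages and granulocytes in the Osm values was not tested.

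Against pneumonectomy, day 14 after bleomycin had 7 of the 20 STAT3 targets higher, 11 lower and 2 not called. After scaling, 36.2% of all tested genes were higher and 34.6% lower. On the deposited values 9 of the 20 were higher and 10 lower, where 7918 of all 12938 tested genes were higher and 2307 lower. Icam1, an adhesion molecule gene, averaged 22.7 RPKM after bleomycin and 141.5 RPKM after pneumonectomy (-3.10 ± 0.16, adjusted p = 5.09e-08). Myc (-2.98 ± 0.26) and Pim1 (-2.77 ± 0.23) were lower as well, while Lrg1 (5.24 ± 0.59), the cytokine gene Il1b (4.63 ± 0.64) and Ccnd1, the cyclin D1 gene (3.74 ± 0.26), were higher. At day 30 after bleomycin 1 of the 20 (Ccnd1) was higher than after pneumonectomy, 12 were lower and 7 not called, where 28.5% of all genes were higher and 29.0% lower. Icam1 (-2.69 ± 0.14), Nfkb1 (-2.62 ± 0.17) and Myc (-2.58 ± 0.23) were lower at day 30, and Il1b (4.39 ± 0.57), its antagonist Il1rn (2.86 ± 0.29) and Osm were higher. The granulocyte and macrophage markers, high in the bleomycin groups, move with Il1b here too, and their part was not tested.

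Over the whole list of 69 further pathway genes, 61 were tested. After pneumonectomy 28 were higher than in sham and 6 lower, at day 14 after bleomycin 24 and 20, and at day 30 after bleomycin 15 and 14, where 42.0%, 63.3% and 28.8% of all tested genes were called. On the deposited values these counts were 23 and 9, 29 and 10, and 18 and 8. The day 30 counts were 10 and 7 without sham replicate 2 and 14 and 8 without sham replicate 1. Those at day 30 included Il1rn (3.37 ± 0.33), Il1b (3.12 ± 0.66) and Hp (3.07 ± 0.60) among the higher and Cntfr (-1.52 ± 0.30), Il1rl2 (-1.38 ± 0.23) and Myc (-1.15 ± 0.26) among the lower. Of the 8 kinases, STATs and adaptors, 5 were higher and none lower after pneumonectomy (Jak1, Jak2, Stat5a, Ptpn11 and Gab1), or 3 and none on the deposited values. At day 14 after bleomycin 2 of them were higher and 5 lower, a balance that turned to 2 higher and 1 lower on the deposited values. Of the 8 brakes, a set that includes the SOCS genes other than Socs3, 3 were higher (Socs2, Cish and Ptpn2) and 1 lower (Pias3) after pneumonectomy, and 3 were higher (Socs2, Cish and Ptpn6) and 3 lower (Socs1, Socs5 and Socs7) at day 14 after bleomycin, or 4 and none on the deposited values. From day 14 to day 30 after bleomycin 16 of the 61 were higher and 18 lower, or 10 and 22 on the deposited values, where 28.9% of all genes were higher and 30.7% lower after scaling. Among them were Il11ra1 (2.35 ± 0.16), Il18 (1.46 ± 0.37) and Irak3 (1.23 ± 0.11) as the largest rises and Lrg1 (-4.81 ± 0.53), Sigirr (-4.05 ± 0.39) and Saa3 (-2.80 ± 0.26) as the largest falls.

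**Figure D5:**
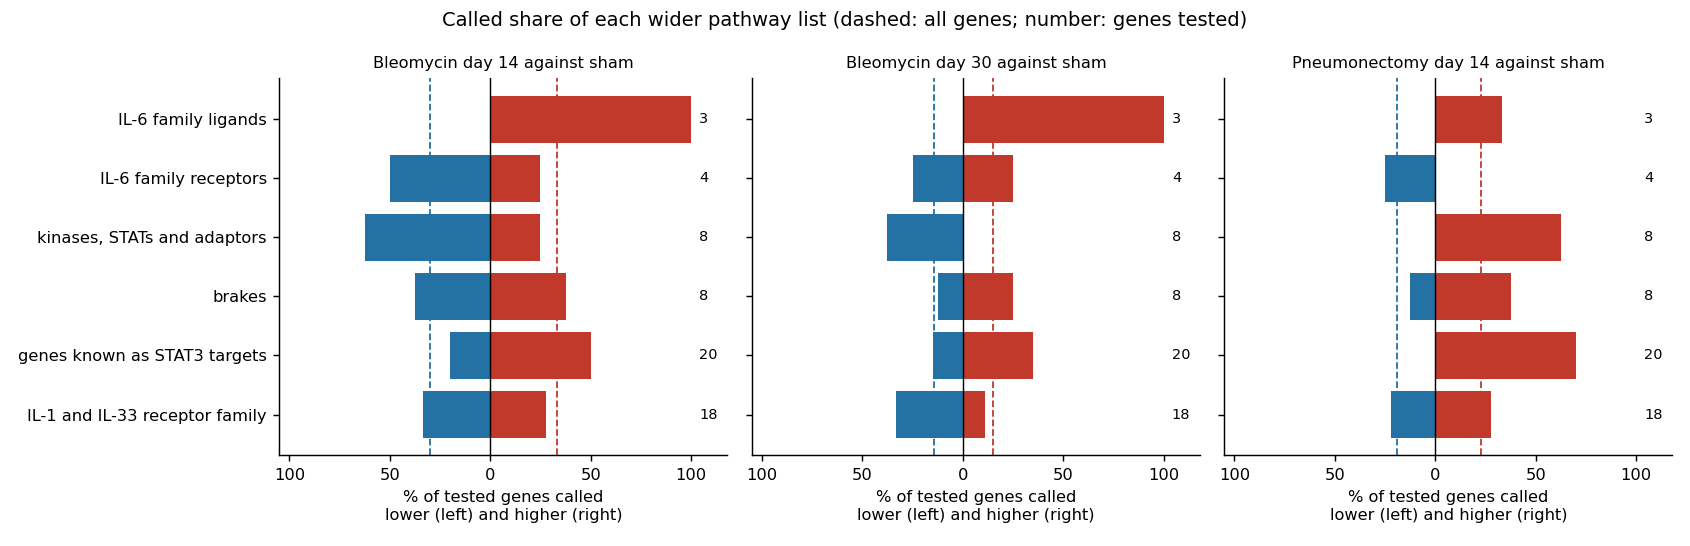
Share of the tested genes called lower (left) and higher (right) in percent (x axis) in each list of further pathway genes (y axis), by comparison with sham, with the share of all genes as dashed lines and the number tested at the right. After pneumonectomy 14 of 20 genes known as STAT3 targets were higher and none lower, and at day 14 after bleomycin 10 were higher and 4 lower.

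The genes whose levels were most like those of Il6, Il11, Il33 and Socs3 are given as a description over 13 libraries that fall into 4 groups and share their scaling. For Il6 they were Ptp4a1 (Pearson r = 0.992), Sowahc (0.987) and Tnfaip6 (0.986), the last at 143.8 RPKM on average after pneumonectomy and 29.8 RPKM in sham. For Il11 they were Rnf19b (r = 0.958), Col27a1 (0.945) and Gramd1b (0.943), and for Il33 Adamtsl3 (0.989), Anpep (0.988) and Ston2 (0.987). Anpep averaged 4.42 RPKM at day 14 and 31.4 RPKM at day 30 after bleomycin, 12.6 RPKM after pneumonectomy and 39.9 RPKM in sham. The likeness was lower for Socs3, with the immediate-early genes Ier2 (r = 0.898), Zfp36 (0.796) and Junb (0.780).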

How the data were processed

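The authors deposited 1 table of RPKM, a read count scaled to gene length and library size, for 43346 genes in 13 libraries, as the submitters named it. Per the submitters' processing notes the genome build was mm10. The aligner, counter, annotation and use of strand are not given in the sources used here. No label links the numbered columns of the pneumonectomy group to its replicates, so these libraries are named A, B and C.

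From the deposited RPKM, library depth was estimated by finding the number of reads at which low values become whole reads, given GENCODE M21 gene lengths, and 80.6% to 82.2% of them came out whole within 0.05 reads. That is too few for a count test, so depths and read numbers are estimates. Values were scaled between libraries by a trimmed mean of ratios (30% of ratios and 5% of levels trimmed) and tested as log2(RPKM + 0.1) with limma 3.58.1 in R 4.3.3, in 1 linear model with a mean per group and an intensity trend, two-sided. Genes entered if 2 or more libraries reached 1 RPKM, which left 12938. A gene under 1 RPKM in both sham libraries could enter only through other groups, which favours a call of higher than sham. Il11, Osm and the 3 tested mast cell markers were among these. A gene was called at an adjusted p under 0.05, and 131 entries that share a symbol were kept apart. Il1rl1, which did not enter, was compared by exact permutation tests. The fit was tested on simulated data.

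The members and lists were chosen with earlier results of these data known. All 10 members are named in each comparison, and of the 69 further pathway genes up to 3 per direction, those with the largest change among the called genes whose higher group averaged 1 RPKM or more. Genes behind counts of 6 or fewer in a list were named after their values were seen, and some genes of the lists are not reported here. For Il6, Il11, Il33 and Socs3 the 3 tested genes with the highest correlation are named. Alternatives were another pseudocount, 2 other filters, 2 other scalings, fits of the compared groups alone, with a replicate block and without the intensity trend, and leaving out each library. An alternative without sham replicate 1 and day 30 replicate 3 was added after seeing the data.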

Additional observations from a re-analysis of the deposited data

Results flagged for a closer look

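Il6 in replicate 1 of the day 30 bleomycin group stood apart from the other libraries of that group, at 94.3 RPKM against 19.6 to 35.4 RPKM. The flag came from the Dixon gap test on deposited RPKM, with a gap of 0.789 against a cutoff of 0.71. The flag rule was not applied to the log2 scale of the limma fit, where the library had 6.50 against 4.23 to 5.09 in the others. It was the 1 flag among the 10 genes in this group of 5 libraries, and chance flags about 1 in 20 groups.

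Il6 also differed in direction between bleomycin and pneumonectomy at day 14, being lower than sham after bleomycin and higher than sham after pneumonectomy. The direct difference between the 2 groups was -4.54 ± 0.53 on the log2 scale (limma, adjusted p = 1.42e-05), with all 3 bleomycin libraries below all 3 pneumonectomy libraries.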

How the results depend on the processing

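Of 37 calls on members, 27 held in every alternative, which numbered up to 22 each, and the calls that were lost without 1 library stand beside their values above. Over all 54 member differences and their alternatives, 1102 of 1161 values kept direction and call, 31 lost the call, 11 gained it and 17 changed sign. On the deposited values the median of all genes moved to 0.26 at day 14 after bleomycin, 0.11 at day 30 and -0.21 after pneumonectomy against sham, 0.47 for day 14 after bleomycin and 0.34 for day 30 against pneumonectomy, and -0.13 for day 30 against day 14. The calls higher and lower over all genes became 6193 and 2451 (4318 and 3870 after scaling), 3105 and 957 (1912 and 1819), 1762 and 5185 (2930 and 2500), 7918 and 2307 (4684 and 4474), 7408 and 1725 (3693 and 3756), and 2785 and 5213 (3741 and 3971), in that order. Upper-quartile scaling gave 2177 and 3994 for pneumonectomy against sham and 5285 and 2704 for day 30 against pneumonectomy.

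Signs turned on the deposited values for Il11 (0.076, day 14 bleomycin against pneumonectomy), Il6st (0.29) and Socs3 (0.072) at day 30 against pneumonectomy, Osmr (-0.065, day 30 against day 14) and Stat3 (0.040, day 30 against sham). Il6st at day 30 against pneumonectomy was 0.098 with upper-quartile scaling and, over the fits that leave out 1 library, -0.093 (without library C) to 0.0035 (without library B), and Il6ra after pneumonectomy against sham was -0.16 (without library B) to 0.0051 (without library A). Il6 at day 30 against sham was -0.88 without sham replicate 2 and 0.15 without sham replicate 1. Socs3 against sham, first without sham replicate 2 and then without sham replicate 1, was -1.35 and 0.25 at day 14, -1.10 and 0.50 at day 30, and -0.83 and 0.77 after pneumonectomy. Without sham replicate 1 and day 30 replicate 3, Il6 at day 30 was 0.23 and Socs3 0.25, 0.49 and 0.77 in that order. The cause of these changes was not tested.

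The count of genes called at day 30 against sham, 3731, was 1802 to 4082 over the fits that leave out 1 library, lowest without sham replicate 2 and 2351 without sham replicate 1, and 2145 without sham replicate 1 and day 30 replicate 3. For pneumonectomy against sham the 5430 genes called became 3481 with the compared groups alone and 3358 to 5647 with 1 library left out, lowest without sham replicate 2. Members called with 1 library left out numbered 4 to 7 at day 14 after bleomycin, 3 to 6 at day 30 and 5 to 7 after pneumonectomy against sham, and 7 to 8, 7 and 4 to 6 for day 14 and day 30 against pneumonectomy and day 30 against day 14.

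With limma and no filter, Il1rl1 was called at day 14 after bleomycin against sham (2.86, adjusted p = 1.2e-04) and against pneumonectomy (1.46, adjusted p = 0.00439) and after pneumonectomy against sham (1.402, adjusted p = 0.0222), likewise with a filter of 0.1 RPKM. Day 30 against sham was also called in both of these limma fits. Day 30 against day 14 was called with the filter of 0.1 RPKM but not without a filter (-0.80, adjusted p = 0.0675). Leaving out 1 library gave 1.99 to 2.13 at day 30 against sham (exact permutation p = 0.0667 to 0.167), -0.99 to -0.52 at day 30 against day 14 (exact permutation p = 0.0286 to 0.0952) and 0.43 to 1.07 at day 30 against pneumonectomy (exact permutation p = 0.0476 to 0.333).

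The replicate numbers of sham and bleomycin libraries did not pair the samples, since over 7 same-numbered pairs the correlation of deviations was -0.127 to 0.136, with 1 above 0.1, and 1 of 8 libraries correlated best with its own number. With the replicate block, 367 genes and 1 member were called at day 30 against sham, where Lif, Il6ra and Il6st lost their calls and Il6 was 0.25, and at day 14 against sham 6786 genes and 6 members. No paired analysis was possible for pneumonectomy because no label links its columns to replicate numbers. Depth limits Il1rl1 and Il11 most in sham, where they rest on 18 to 23 and 38 to 56 estimated reads.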
